A study of Mus musculus with 7 samples.

Results

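The 10 receptors described here, Glp1r, Gipr, Gcgr, Gpr119, Ffar1, Chrm3, Casr, Sstr3, Adra2a and Galr1, are G-protein-coupled receptors through which hormones, nutrients and nerves adjust insulin secretion. Each was found on the arrays by matching the accession of a probe to its symbol, and every matching probe was kept. This gave 10 of 22911 named genes and 13 of the 56605 probes that are not control spots, with 2 probes each for Chrm3, Casr and Galr1 and 1 for each of the other receptors. Islet RNA of male mice was hybridised to 7 single-colour arrays after Cy3 labelling of 50 ng per array. A probe is a spot of a short synthetic DNA that captures 1 transcript. There were 3 control samples (Pdx1CreER Tg-; Wnt4fl/fl, numbered 2, 3 and 4) and 4 Wnt4βKO samples (Pdx1CreER Tg+; Wnt4fl/fl, numbered 1 to 4). The mice of both groups carried floxed Wnt4 alleles and were given tamoxifen at 4 to 5 weeks of age, with islets taken at 7 weeks. The labels also give the controls the genotype WT, and the titles carry the code w11, whose meaning they do not state. In Wnt4βKO mice tamoxifen activates a Cre recombinase under the Pdx1 promoter, which is active in β-cells and in part of the δ-cells. The controls lacked the transgene, so loss of Wnt4 and presence of Cre cannot be told apart. The study left out a further control sample for quality.

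Insulin release is triggered by glucose and then scaled by these receptors through 3 classes of G protein. Receptors coupled to Gs (Glp1r, Gipr, Gcgr and Gpr119) raise cyclic AMP, which strengthens exocytosis of insulin granules once calcium has entered the cell. Receptors coupled to Gq (Ffar1, Chrm3 and Casr) act through phospholipase C and calcium stores, and receptors coupled to Gi (Sstr3, Adra2a and Galr1) lower cyclic AMP and act as brakes on secretion. The incretins GLP-1 and GIP come from the gut after a meal, somatostatin comes from δ-cells of the same islet, noradrenaline and acetylcholine come from nerves, and galanin comes from nerves and, in some species, from islet cells.

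The receptors gave no difference past the adjusted threshold. At an unadjusted limma p of 0.05, which is the threshold of the study, Sstr3 was higher in Wnt4βKO islets and Glp1r and Adra2a were lower. The letters before their start sites are shown here because these 3 receptors carry the largest part of what follows. They are the 250 bases before the start, 5′ to 3′ on the strand of the gene, from the RefSeq promoter table of build GRCm38.p6: chr17:30901617-30901866 on the plus strand for Glp1r, chr15:78544346-78544595 on the minus strand for Sstr3 and chr19:54045009-54045258 on the plus strand for Adra2a. Capitals mark the matches to any of 4 literal motifs, which were searched on both strands. The TATA box is spelled TATAAA. The GC box, which binds Sp factors, is spelled GGGCGG. A part of the cAMP response element, not the full element, is spelled TGACG. The core bound by TCF and LEF, the factors of the canonical Wnt pathway, is spelled CTTTGA.
Glp1r: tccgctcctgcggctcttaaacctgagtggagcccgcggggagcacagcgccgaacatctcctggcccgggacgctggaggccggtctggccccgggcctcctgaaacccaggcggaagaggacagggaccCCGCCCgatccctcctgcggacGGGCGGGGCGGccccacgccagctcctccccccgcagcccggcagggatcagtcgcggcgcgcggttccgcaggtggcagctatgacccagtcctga
Sstr3: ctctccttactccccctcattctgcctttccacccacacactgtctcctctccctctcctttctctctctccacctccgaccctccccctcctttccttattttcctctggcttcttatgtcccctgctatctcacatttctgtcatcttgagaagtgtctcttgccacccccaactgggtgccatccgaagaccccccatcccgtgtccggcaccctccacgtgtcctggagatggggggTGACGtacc
Adra2a: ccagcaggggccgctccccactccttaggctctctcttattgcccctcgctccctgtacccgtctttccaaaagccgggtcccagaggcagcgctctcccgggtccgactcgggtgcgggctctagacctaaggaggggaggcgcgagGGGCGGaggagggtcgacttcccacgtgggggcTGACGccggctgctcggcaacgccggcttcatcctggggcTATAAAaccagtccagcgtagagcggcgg

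The 3 stretches differed in composition, with 73.2% G or C before Glp1r, 67.6% before Adra2a and 57.2% before Sstr3. Before Adra2a, TATAAA began 29 bases, TGACG 69 bases and GGGCGG 102 bases before the start. Before Glp1r, GGGCGG was matched 3 times, of which 2 matches on the strand of the gene overlap by a base. Before Sstr3, TGACG began 9 bases before the start, and the table lists 2 starts for this gene, of which the one farther upstream is shown. CTTTGA was absent from these windows. Of 8 receptors with an entry, 1 held TATAAA, 3 held GGGCGG, 3 held TGACG and 0 held CTTTGA. Over all 32851 entries of the table the shares with a match in the same length were 12.4%, 32.7%, 17.8% and 13.8%, in that order. A match is a description of the letters and not a bound site.

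All 13 probes passed the filter on dim probes, for which a spot had to be called well above background by the scanner software on 3 or more of the 7 arrays. The values below are log2 signals after background correction and quantile normalization, a difference is always Wnt4βKO minus control, and n is 3 control and 4 Wnt4βKO arrays. Signals of different probes are not set against each other, because probes differ in how well they bind. The RNA is that of whole islets, so fewer cells of a type and less RNA per cell cannot be told apart.

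**Figure D1:**
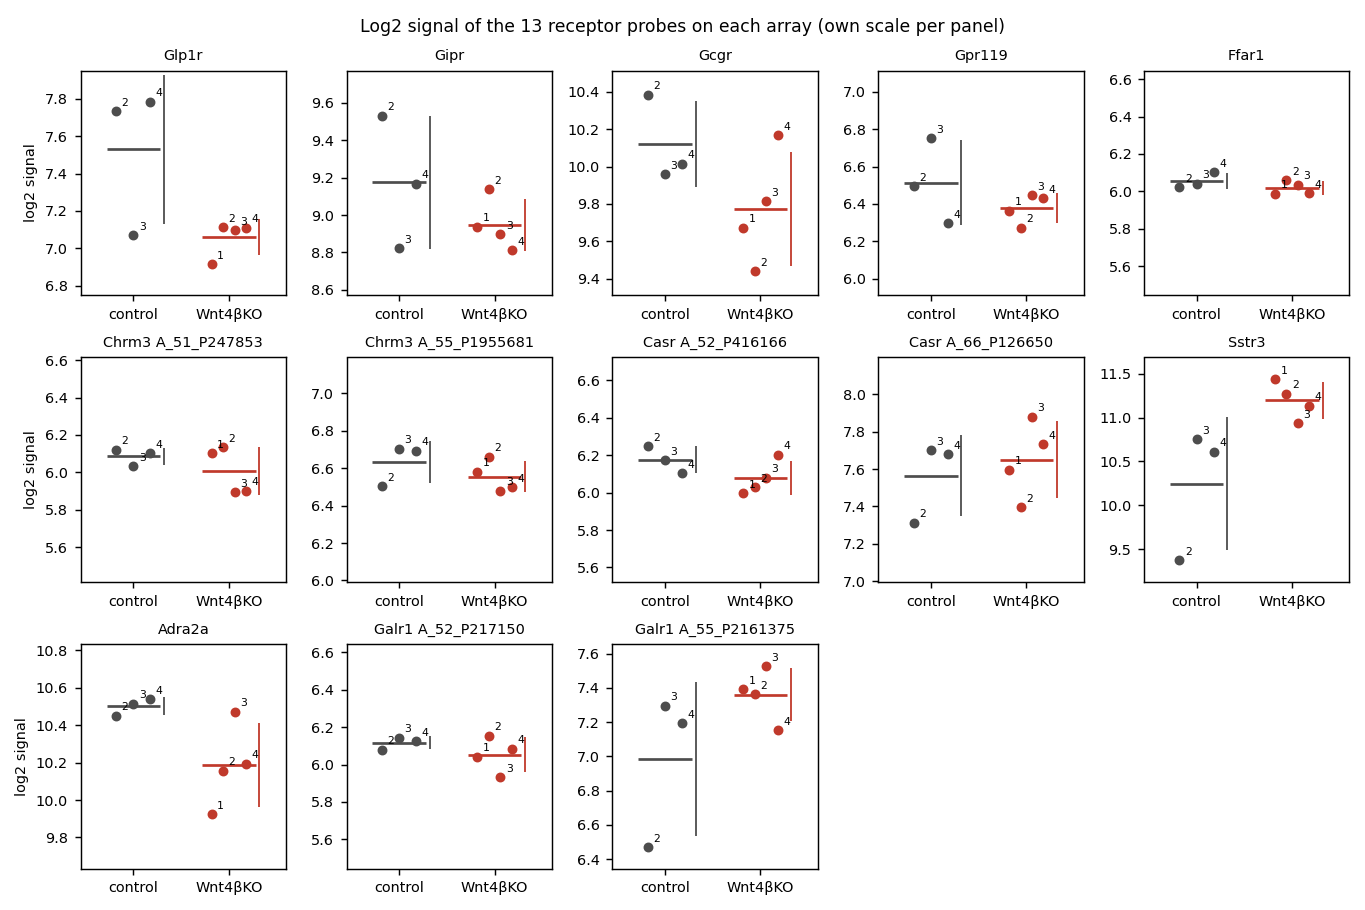
Log2 signal of each of the 13 receptor probes (y axis, own scale in each panel) in control (grey) and Wnt4βKO (red) islets, with a point per array numbered by replicate, the group mean as a bar and 1 SD as a vertical line. For Sstr3 every Wnt4βKO point lies above every control point, and control replicate 2 lies far below the other controls. For the other probes the groups overlap.

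Among the Gs-coupled receptors, Glp1r, the receptor of GLP-1 and of its drug analogues, was lower in Wnt4βKO islets. The controls (replicates 2, 3 and 4) gave a log2 signal of 7.73, 7.07 and 7.78, and Wnt4βKO replicates 1 to 4 gave 6.92, 7.11, 7.10 and 7.11. Control replicates 2 and 4 lay well above the other 5 arrays, while control replicate 3 lay among the Wnt4βKO values. The difference was -0.47 ± 0.18 (SE) with a 95% confidence interval from -0.88 to -0.06, so the Wnt4βKO signal was 72.2% of control. The limma p was 0.0301 unadjusted and 0.670 after Benjamini-Hochberg adjustment over the 26151 probes tested. The spots behind these values were 3.75 to 7.65 times as bright as their local background. In the processed signal of the scanner, on a linear scale before any scaling between arrays, Glp1r read 116, 113 and 172 in the controls and 68.8, 82.8, 74.9 and 73.9 in Wnt4βKO islets. The groups did not overlap on that scale, which also holds differences in brightness between whole arrays. On it control replicate 3 read highest for every receptor probe except those of Glp1r and Sstr3. After normalization that array was highest for 2 of the 13 probes.

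Gipr, the receptor of the other incretin, GIP, gave 9.53, 8.82 and 9.17 in the controls and 8.94, 9.14, 8.90 and 8.81 in Wnt4βKO islets, in the same order of replicates as above. The controls spanned almost the whole range of both groups. The difference was -0.23 ± 0.17 (SE), with a 95% confidence interval from -0.62 to 0.16 and an unadjusted limma p of 0.213. It was -0.05 without control replicate 2 and -0.40 without control replicate 3, where the unadjusted limma p was 0.0259. Gcgr, the glucagon receptor, gave 10.38, 9.96 and 10.02 in the controls and 9.67, 9.44, 9.82 and 10.17 in Wnt4βKO islets. Wnt4βKO replicate 4 alone of its group lay above the lowest control. The Gcgr difference was -0.34 ± 0.18 (SE), a Wnt4βKO signal of 78.8% of control, with an interval from -0.78 to 0.09 and an unadjusted limma p of 0.101. It was -0.21 without control replicate 2 and -0.48 without Wnt4βKO replicate 4, where the unadjusted limma p was 0.0192, and it also passed with median scaling (-0.35, 0.0411). Gpr119, a receptor of fatty acid amides on β-cells and enteroendocrine cells, ranged from 6.30 to 6.75 in the controls and from 6.27 to 6.45 in Wnt4βKO islets. Its difference was -0.14 ± 0.12 (SE), with an unadjusted limma p of 0.276. All 4 probes of this class were lower in Wnt4βKO islets on average, as were 49.1% of all tested probes. Of the 4, 1 passed the unadjusted threshold, and over all tested probes 3.63% were lower by that rule.

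None of the 5 probes of the Gq-coupled receptors passed the unadjusted threshold. Ffar1, the receptor of long-chain fatty acids on β-cells, stayed between 6.02 and 6.10 in the controls and between 5.99 and 6.06 in Wnt4βKO islets. Its spots were only 1.15 to 1.52 times as bright as local background, and the offset of 50 added to every spot sets a floor of 5.64 on the log2 scale, so the probe could show little change. Its difference was -0.04 ± 0.06 (SE). The same holds for the dimmer probe of Chrm3, the muscarinic receptor through which vagal acetylcholine acts on β-cells. That probe (A_51_P247853) was well above background on 3 of 3 control and 2 of 4 Wnt4βKO arrays and differed by -0.08 ± 0.09 (SE). The brighter Chrm3 probe (A_55_P1955681) ranged from 6.50 to 6.70 in the controls and from 6.48 to 6.66 in Wnt4βKO islets, a difference of -0.08 ± 0.08 (SE). Casr, the calcium-sensing receptor, gave 7.31, 7.70 and 7.68 in the controls and 7.60, 7.39, 7.88 and 7.73 in Wnt4βKO islets on its brighter probe (A_66_P126650), with the groups interleaved. This probe differed by 0.09 ± 0.15 (SE), and the dimmer one (A_52_P416166), well above background on 2 of 4 Wnt4βKO arrays, by -0.10 ± 0.08 (SE). The farthest bound of the 95% confidence intervals in this class was 0.43, for the brighter Casr probe. Under 1 other treatment, in which the scanner's processed signal was divided by the 75th percentile of each array, the dimmer Casr probe passed (-0.71, unadjusted limma p 0.0248) and the dimmer Chrm3 probe gave -0.52 and did not.

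Among the Gi-coupled receptors, Sstr3, a somatostatin receptor that β-cells carry on their primary cilium, gave the largest difference of the 13 probes. The controls (replicates 2, 3 and 4) gave a log2 signal of 9.38, 10.75 and 10.61, and Wnt4βKO replicates 1 to 4 gave 11.44, 11.27, 10.94 and 11.13. The lowest Wnt4βKO array was above the highest control, and control replicate 2 lay far below the other controls. The difference was 0.95 ± 0.32 (SE) with a 95% confidence interval from 0.19 to 1.71, a Wnt4βKO signal of 193% of control. The unadjusted limma p was 0.0210 and the adjusted p was 0.638. Without control replicate 2 the difference was 0.51, with an unadjusted limma p of 0.0127, so that the size of the difference rested to a large part on that array. Without Wnt4βKO replicate 1 it was 0.87 and the unadjusted limma p was 0.0508. In the processed signal before scaling between arrays, Sstr3 read 431, 2406 and 2637 in the controls and 6300, 4603, 1841 and 2294 in Wnt4βKO islets, so that on that scale Wnt4βKO replicates 3 and 4 lay below control replicates 3 and 4. These values differ from the log2 signals above in the signal read, its background correction and the scaling.

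Adra2a, the α2A-adrenergic receptor through which noradrenaline suppresses insulin release, was lower in Wnt4βKO islets. The controls were tight, at 10.45, 10.52 and 10.54, whereas Wnt4βKO replicates 1 to 4 gave 9.92, 10.16, 10.47 and 10.19. Wnt4βKO replicate 3 lay among the controls and the other three lay below them. The difference was -0.31 ± 0.13 (SE) with a 95% confidence interval from -0.61 to -0.02, a Wnt4βKO signal of 80.4% of control. The unadjusted limma p was 0.0389 and the adjusted p was 0.691. It passed the unadjusted threshold in 1 of the 7 fits that leave out an array, the one without Wnt4βKO replicate 3, where the difference was -0.41 with an unadjusted limma p of 0.00547. In the other 6 the difference lay between -0.34 and -0.23 and the unadjusted limma p between 0.0632 and 0.0967. These 6 leave out control replicate 2, 3 or 4 or Wnt4βKO replicate 1, 2 or 4.

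The probes of Galr1, a galanin receptor, differed from each other in sign. The brighter one (A_55_P2161375) gave 6.47, 7.30 and 7.19 in the controls and 7.39, 7.36, 7.53 and 7.15 in Wnt4βKO islets. As for Sstr3, control replicate 2 was the lowest array, and Wnt4βKO replicate 4 lay within the control range. Its difference was 0.37 ± 0.20 (SE), with an interval from -0.10 to 0.85 and an unadjusted limma p of 0.108, and it was 0.11 without control replicate 2 and 0.53 without control replicate 3, where the unadjusted limma p was 0.0446. The dimmer Galr1 probe (A_52_P217150) differed by -0.06 ± 0.08 (SE). At the unadjusted threshold Sstr3 was thus higher, Adra2a was lower and Galr1 passed on neither probe. Over all tested probes 3.33% were higher and 3.63% lower by that rule, and none of these receptors passed the adjusted threshold.

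**Figure D2:**
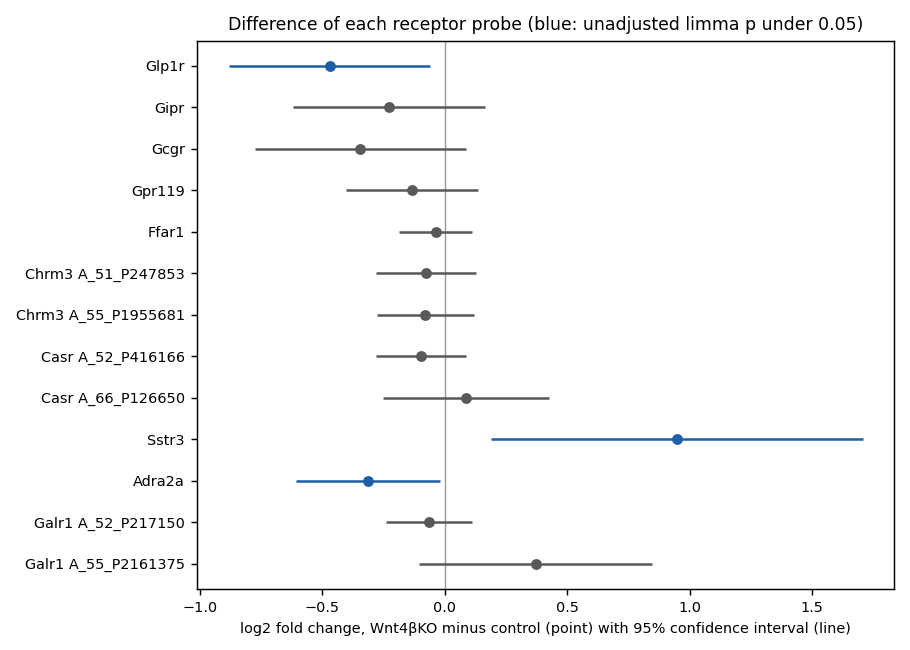
Log2 fold change (x axis, Wnt4βKO minus control) of the 13 receptor probes, with points for the limma estimate and lines for its 95% confidence interval, ordered from Gs-coupled at the top through Gq-coupled to Gi-coupled receptors. The intervals of Glp1r, Sstr3 and Adra2a, in blue, exclude 0, and that of Sstr3 is the widest.

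Counted together, 1 of the 13 probes was higher and 2 were lower at an unadjusted limma p under 0.05. Over all tested probes 3.33% were higher and 3.63% lower by the same rule. At an adjusted p of 0.05 the count was 0 of 13, against 0.0153% of all probes, and the smallest adjusted p of a receptor was 0.638. The groups did not overlap for 1 probe that was higher and for 0 that were lower, against 3.54% and 3.70% of all probes. In sign, 10 of the 13 probes (76.9%) were lower in Wnt4βKO islets, against 49.1% of all tested probes, and their median difference was -0.08, against 0.003. These counts are a description, since the probes share 7 arrays and some share a gene. The receptors were also chosen with earlier results of these data known. Some of the lower probes lay near background, such as that of Ffar1 at -0.04. The median size of a difference, sign aside, was 0.14 for the receptors and 0.09 for all probes, and the standard errors of the receptors ran from 0.06 to 0.32.

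No array was the extreme one throughout. Of the 13 probes, Wnt4βKO replicate 1 was lowest for 4, control replicate 2 and Wnt4βKO replicate 3 for 3 each, Wnt4βKO replicate 2 for 2 and Wnt4βKO replicate 4 for 1. Control replicates 2 and 4 were highest for 3 probes each. The arrays lay in 2 rows of 1 slide, with control replicate 4 and Wnt4βKO replicates 1 and 2 in row 1 and the others in row 2. Within row 1 the differences were 0.74 for Sstr3, -0.77 for Glp1r and -0.50 for Adra2a, and within row 2 they were 0.97, -0.30 and -0.15. The direction of these 3 receptors was thus the same in either row. They were picked for their differences over these same arrays, so this is no separate check. Row 1 held 1 control, and the Sstr3 value of row 2 includes control replicate 2, at 9.38 far below the other controls.

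Over 21 other treatments of the data, Sstr3 stayed higher and Glp1r and Adra2a stayed lower in each. Not all of these are separate checks of the difference. For these receptors, with 1 probe each, a changed filter, another variance model and the mean over probes alter only the p. The replicate block gave the same differences as leaving out Wnt4βKO replicate 1. Sstr3 kept an unadjusted limma p under 0.05 in 17 of the 21, with differences from 0.51 to 1.33, and among those where it lost it were median scaling (0.96, unadjusted limma p 0.0987) and the acinar covariate described further on. Glp1r kept it in 14, from -0.73 to -0.34, and Adra2a in 5, from -0.41 to -0.14. Glp1r lost it without control replicate 2 (-0.37, unadjusted limma p 0.107), control replicate 4 (-0.34, 0.110), Wnt4βKO replicate 1 (-0.42, 0.0695) and Wnt4βKO replicate 3 (-0.48, 0.0512). Without control replicate 3, the control that lay among the Wnt4βKO values, the Glp1r difference was -0.70 and the unadjusted limma p 1.95e-04. The adjusted p of Glp1r over these treatments was never below 0.377, that of Sstr3 never below 0.575 and that of Adra2a never below 0.558.

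**Figure D3:**
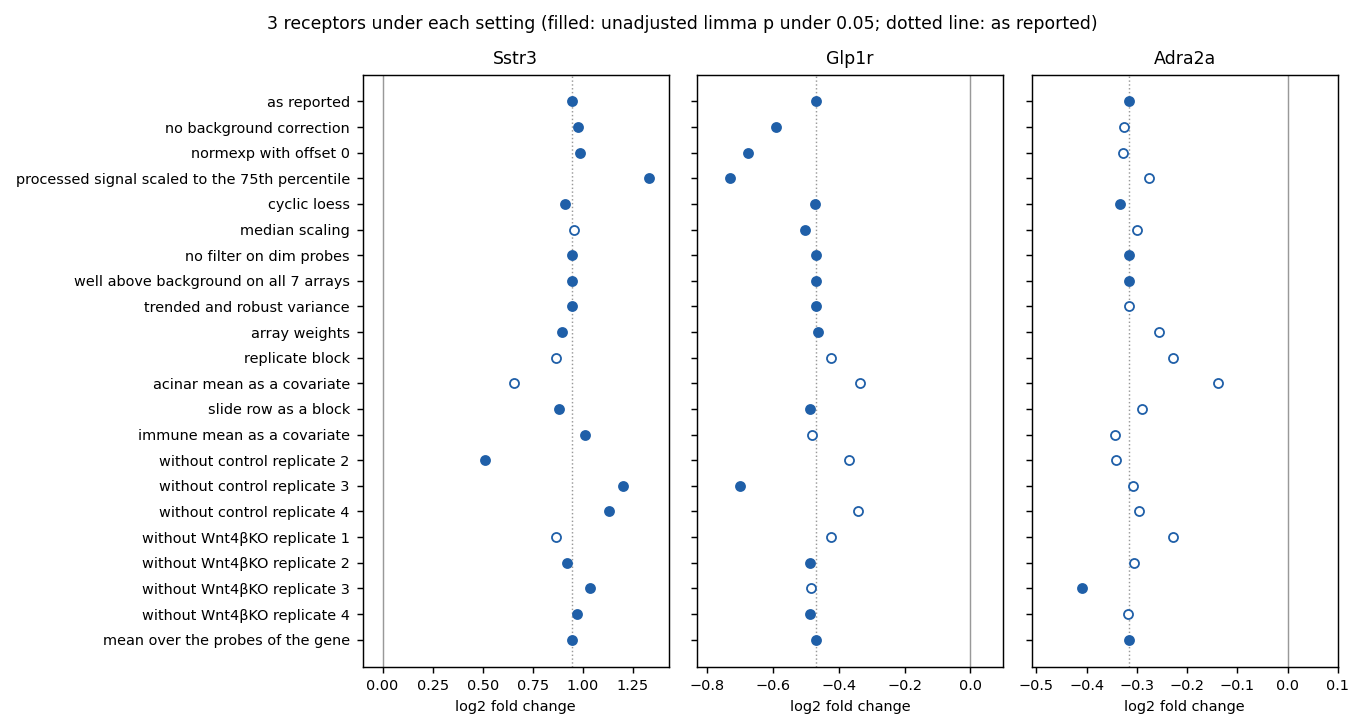
Log2 fold change (x axis, Wnt4βKO minus control) of Sstr3, Glp1r and Adra2a as reported and under 21 other treatments of the data (rows), with filled points where the unadjusted limma p was under 0.05. No point crosses 0, and some treatments alter only the p. For Sstr3 the smallest value is that without control replicate 2, and for Adra2a that with the acinar mean as a covariate.

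The genes that work with these receptors were examined in 8 lists, which hold other receptors of the 3 coupling classes, peptide ligands, G-protein subunits and the enzymes and regulators downstream. Of 168 genes listed, 122 had a tested probe, with the brightest probe standing for a gene. At an unadjusted limma p under 0.05, 4 were higher and 5 were lower in Wnt4βKO islets, and 0 passed the adjusted threshold. Over all 13666 genes with a tested probe 4.51% were higher and 4.43% lower by that rule.

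The largest difference among the other receptors was that of Ffar2, a Gi-coupled and Gq-coupled receptor of short-chain fatty acids that is found on β-cells and on white blood cells. Ffar2 gave 7.82, 7.71 and 7.55 in the controls and 8.78, 8.24, 9.03 and 8.97 in Wnt4βKO islets, with every Wnt4βKO array above every control array. The difference was 1.06 ± 0.19 (SE), a Wnt4βKO signal of 209% of control, with an unadjusted limma p of 7.57e-04 and an adjusted p of 0.412. It stayed past the unadjusted threshold in all 21 other treatments, some of which alter only the p. Adora1, a Gi-coupled adenosine receptor, was higher by 0.43 ± 0.17 (SE), with an unadjusted limma p of 0.0328, on the brighter of its probes, whereas the dimmer one differed by -0.09. Of 13 tested Gi-coupled receptors these 2 were higher and 0 lower.

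The peptide ligands included the strongest fall in the lists. Gal, which encodes galanin, the ligand of Galr1, gave 10.03, 9.47 and 10.03 in the controls and 7.60, 9.18, 8.97 and 8.18 in Wnt4βKO islets. The highest Wnt4βKO array was below the lowest control. The difference was -1.36 ± 0.38 (SE), a Wnt4βKO signal of 38.9% of control, with an unadjusted limma p of 0.00873 and an adjusted p of 0.582, and with the acinar mean as a covariate it was -0.43. Of 10 tested ligands 1 was lower and 0 higher. Gcg and Sst, the ligand genes of Gcgr and of Sstr3, are named outside the rule for named genes, after their values were seen. They differed by -0.23 ± 0.18 (SE) and -0.14 ± 0.14 (SE), with unadjusted limma p of 0.245 and 0.346.

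Crhr1, a Gs-coupled receptor of corticotropin-releasing hormone and urocortins, was lower in Wnt4βKO islets, by -0.46 ± 0.15 (SE), with an unadjusted limma p of 0.0156. Its signal was 6.83, 6.29 and 6.23 in the controls and 5.90, 6.04, 6.04 and 5.98 in Wnt4βKO islets, and it was well above background on 3 of 4 Wnt4βKO arrays. The groups did not overlap. The Wnt4βKO values lay near the floor of 5.64, which limits the size of a fall. Without control replicate 2, its highest array, the Crhr1 difference was -0.27. With the processed signal scaled to the 75th percentile it was -1.83. Crhr1 kept the unadjusted threshold in 19 of the 20 other treatments that held its probe. Of the 10 tested Gs-coupled receptors 1 was lower and 0 higher, and of the 8 tested Gq-coupled receptors 0 passed in either direction, with differences from -0.67 to 0.10.

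In the lists of G-protein subunits and of the cyclic AMP and phospholipase C pathways the differences ran from -0.33 to 0.35. Of 24 tested G-protein subunits 0 passed, and they ranged from -0.26 to 0.23. Of 25 tested genes of the cyclic AMP pathway 1 was higher, Pde4a, a phosphodiesterase that degrades cyclic AMP. It was higher by 0.31 ± 0.13 (SE), with an unadjusted limma p of 0.0388, on its brighter probe and differed by -0.003 on the dimmer one. Of 14 tested genes of the phospholipase C pathway 2 were lower. They were Trpm5, a calcium-activated cation channel of β-cells, at -0.33 ± 0.14 (SE), and Plcb4, a phospholipase C, at -0.24 ± 0.10 (SE), with unadjusted limma p of 0.0473 and 0.0477. The dimmer Plcb4 probe differed by -0.004. With the acinar mean as a covariate Trpm5 was -0.06 and Plcb4 -0.18, and over the 21 other treatments Trpm5 kept the unadjusted threshold in 5, Plcb4 in 9 and Pde4a in 7.

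Among 18 tested genes that end receptor signalling or accompany receptors, 1 was higher and 1 lower. Rgs16, which speeds the shutdown of Gi and Gq proteins, gave 9.39, 10.11 and 8.92 in the controls and 8.44, 8.45, 8.96 and 9.03 in Wnt4βKO islets. The groups overlapped, and control replicate 3 was the highest array. Its difference was -0.76 ± 0.29 (SE), with an unadjusted limma p of 0.0341, and without control replicate 3 it was -0.44. Grk6, a kinase that marks active receptors for arrestin, was higher by 0.31 ± 0.13 (SE), with an unadjusted limma p of 0.0425, while its 2 dimmer probes differed by 0.14 and -0.03. Grk6 kept the unadjusted threshold in 9 of the 21 other treatments, Rgs16 in 14 and Adora1 in 13.

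**Figure D4:**
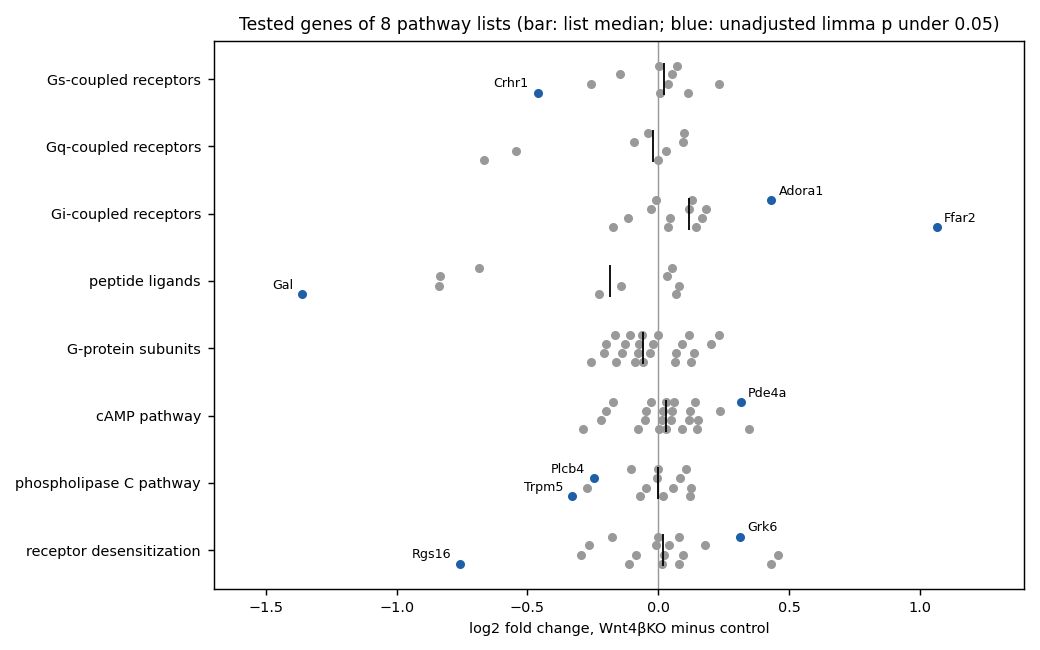
Log2 fold change (x axis, Wnt4βKO minus control) of the 122 tested genes of 8 pathway lists (rows), with a point per gene and a bar at the median of each list. The 9 genes with an unadjusted limma p under 0.05 are blue and named, with Ffar2 farthest to the right and Gal farthest to the left.

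As a check of the islet label, all 10 β-cell markers were well above background on all 7 arrays and their mean log2 signal was 11.60 to 11.74 in the controls and 11.44 to 11.68 in Wnt4βKO islets. Within that list Slc2a2, the glucose transporter of mouse β-cells, was lower, at -1.54 ± 0.10 (SE), with an adjusted limma p of 0.00877, and Ins1 was higher by 0.29 ± 0.10 (SE), with an unadjusted limma p of 0.0200. Both are named after their values were seen. Ins1 is among the brightest probes, where quantile normalization leaves little but the rank of a probe on its array. Ins2, for example, gave 15.67 or 15.82 on every array. The Ins1 difference therefore also depends on how the other brightest probes ranked, and that part was not tested. The inactivated gene itself, Wnt4, gave 11.56, 11.17 and 11.77 in the controls and 11.30, 10.80, 11.04 and 10.92 in Wnt4βKO islets. The groups overlapped, and the difference was -0.49 ± 0.17 (SE) with an unadjusted limma p of 0.0232. Whether its probe lies in the deleted part of the gene was not determined, and a probe outside that part would check nothing. All 14 markers of acinar cells, the enzyme-secreting cells around the islets, were tested, and their median difference was -0.40. At the unadjusted threshold 2 of them were lower and 0 higher, against 4.43% and 4.51% of all tested genes. The mean of the list ran from 13.74 to 13.90 in the controls and from 13.04 to 13.71 in Wnt4βKO islets, without overlap of the groups and lowest in Wnt4βKO replicates 1 and 4. Its 2 brightest genes are named by the rule. The elastase Cela3b differed by -0.36 ± 0.13 (SE), and Ctrb1, a chymotrypsinogen, by 0.14 ± 0.13 (SE), the highest value of the list. The 2 genes past the unadjusted threshold were Cela3b (unadjusted limma p 0.0270) and Ptf1a. Ptf1a, named after its values were seen, had the lowest value of the list, -1.25 ± 0.30 (SE), with an unadjusted limma p of 0.00358 and no overlap of the groups.

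With the acinar mean as a covariate the differences were 0.66 for Sstr3, -0.34 for Glp1r and -0.14 for Adra2a, and 0 of the 13 receptor probes kept an unadjusted limma p under 0.05. Over all tested probes the count under that threshold fell from 1821 to 634 in the same fit. The acinar mean did not overlap between the groups, so this fit has little power to tell it from genotype. Of 7 tested immune cell markers 1 was higher at the unadjusted threshold, H2-Ab1, at 0.88 ± 0.31 (SE), against 4.51% of all tested genes. The mean of the immune list ran from 8.31 to 8.47 in the controls and from 8.38 to 9.48 in Wnt4βKO islets. The groups overlapped, with Wnt4βKO replicate 4 apart from the rest. With the immune mean as a covariate the difference was 1.01 for Sstr3, which stayed past the unadjusted threshold, and -0.48 for Glp1r and -0.34 for Adra2a, which did not, while Gcgr passed it at -0.52 (unadjusted limma p 0.0139). The part of acinar and immune RNA in these differences was not tested beyond these fits.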

How the data were processed

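The authors deposited 1 scanner output per array, from Agilent Feature Extraction 12.0.1.1 per the file headers (9.1 in the submitters' processing notes), with each spot's median intensity, local background and processed signal on a linear scale. Following the authors' methods, the deposited intensity was corrected by normexp with an offset of 50 and quantile normalized. Control spots were left out and outlier-flagged spots set to missing, which touched no receptor probe. The filter kept probes that the scanner called well above background on 3 or more of 7 arrays (26151 of 56605). They were fitted as Wnt4βKO minus control with limma (version 3.58.1, R version 4.3.3), and two-sided p-values were adjusted by Benjamini-Hochberg over them. Figures used Python 3.11.15. The fit was tested on simulated data. Alternatives changed the background correction, normalization, filter, variance model, array weights, probe rule, covariates or blocks, or left out an array.

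Accessions were named through a RefSeq table of GRCm38.p6, which named 58.3% of probes. The brightest probe stood for a pathway or marker gene. Named genes were the receptors, Wnt4, at most 3 genes of each pathway list, those with the lowest p past an unadjusted 0.05, and at most 2 of the brightest genes of a marker list that moved with genotype. The receptors and lists were chosen with earlier results of these data known. The arrays are the replicates, and the methods of the paper do not state how many mice lie behind each. The number of arrays, 3 and 4, limits the precision. Between 45.5% and 49.0% of spots were well above background.

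A value table of 36693 probes on a log2 scale, which the authors deposited too, was not used. Its columns did not follow the arrays they are named for (r of each probe's deviations from -0.13 to 0.07).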

Additional observations from a re-analysis of the deposited data

Results flagged for a closer look

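Single arrays that stand apart in a group of 4 were sought with Dixon's ratio, the distance of an extreme array from the next one as a share of the whole spread. Of 32 values examined, 1 passed the 95% critical value, and chance flags about 1 in 20. This was Glp1r (A_51_P275077), with a ratio of 0.924. Wnt4βKO replicate 1 had a log2 signal of 6.92, while the other Wnt4βKO arrays lay between 7.10 and 7.11. Without Wnt4βKO replicate 1 the Glp1r difference was -0.42, with an unadjusted limma p of 0.0695.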

How the results depend on the processing

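The alternatives were fixed at the outset except the immune mean as a covariate, which was added after the data were seen. The count of tested probes at an unadjusted p under 0.05 was 1821 and moved to 770 with median scaling, of which 29.2% were higher (47.9% as reported), to 2909 of 56605 with no filter on dim probes and to 634 with the acinar covariate. The count at an adjusted p, 4 as reported, was 7 with processed signal at the 75th percentile, 2 with the replicate block, 2 with the acinar covariate and 2 to 5 with an array left out. Of the receptor probes 3 passed an unadjusted 0.05, 0 with the replicate block, 0 with the acinar covariate, and 0 to 4 with an array left out, where it was 0 without Wnt4βKO replicate 1 and 1 (Sstr3) without control replicate 2 or 4. The pathway count of 9 became 14 with no filter and 5 with the acinar covariate. Signs turned for Ffar1, to 0.00092 with the acinar covariate, and for the brighter Casr probe, to -0.0054 as the mean over its probes and to -0.039 without control replicate 2, its range being -0.039 to 0.17 with an array left out. The cause of these moves was not tested. The numbers shared by groups did not pair the arrays: same-numbered arrays correlated at -0.13, 0.23 and -0.0069 in their deviations from the group means, and 2 of 6 correlated best with their own number. The deposited value table was not run. Probes near background, such as Ffar1, could show little change at this brightness.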
